A study of Homo sapiens with 24 samples.

Results

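Genes of pericellular matrix breakdown were followed through a dosing time course in pancreatic tumor xenografts. The group held 9 genes taken by name: 4 matrix metalloproteinases (MMP1, MMP10, MMP13 and MMP14), 2 of their tissue inhibitors (TIMP1 and TIMP2), the urokinase gene PLAU, its receptor gene PLAUR, and SERPINE2, which encodes an inhibitor of urokinase and thrombin. They are 9 of 60230 genes listed in the files, and all 9 were among the 18242 genes with enough reads to be tested. Membership was by gene name, but the group was chosen with earlier results of these data known. Its counts beside those of all genes are therefore no blind test.

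Treated mice had received 3 oral doses of IK-595, a molecular glue that holds MEK in complex with RAF, at 6 mg/kg every other day. Their tumors were collected 2, 4, 8, 24 or 48 h after the last dose. Control mice received the vehicle, 5% DMSO with 95% PEG400, on the same schedule, and their tumors were collected at 2 h only. Each of the 6 groups had 4 animals, giving 24 tumors. All tumors grew from AsPC-1, a human pancreatic ductal adenocarcinoma cell line, so they represent 1 line. Every comparison with vehicle used the same 4 vehicle tumors, and no vehicle tumor was taken at the later times.

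Matrix metalloproteinases are zinc enzymes that cut collagens and other matrix proteins outside the cell, and the TIMP proteins block them. Urokinase, bound to its receptor on the cell surface, turns plasminogen into plasmin, which degrades fibrin and can activate secreted MMP proenzymes. Several genes of both systems are classical targets of ERK signalling through AP-1 and ETS transcription factors, and pancreatic carcinoma cells make them together with stromal fibroblasts.

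Estimated counts per tumor ran from 10.5 to 20.6 M in total. Epithelial markers identified carcinoma tissue in every group, with the summed level of 10 markers between 5310 and 12570 TPM (a level scaled by transcript length and by library total). That sum was lower in all 8 h tumors (5310 to 7604 TPM) and higher in all 48 h tumors (10326 to 12570 TPM) than in any vehicle tumor (7664 to 10194 TPM). The sum mostly follows KRT8, KRT19 and KRT18 (medians 2808, 2357 and 1583 TPM). Of the 10 markers, 2 rose and 2 fell at 8 h (20% each, beside 20.6% and 23.7% of all genes). At 48 h, 4 rose and 0 fell (40% and 0%, beside 5.52% and 4.46%). The keratin gene KRT7 was low, with a median of 4.46 TPM. The stroma in these tumors is from the mouse host, while the build named for the processing is human, and how mouse reads were handled is not given in the sources used here. Markers of host tissues were nevertheless counted under human gene names. Summed over 15 genes, fibroblast and pericyte markers reached 10768 TPM in tumor 2 of the 4 h group and stayed between 377 and 1813 TPM in the other 23 tumors. Of the 15, 4 rose at 4 h (26.7%, beside 6.74% of all genes), in the group that holds this tumor. The other 4 h tumors had 469 to 1208 TPM of these markers, and the vehicle tumors 456 to 857 TPM. At the other times 0 of the 15 were called, where 9.98% to 44.3% of all genes were. None of the 15 was at 0 in all tumors, though DCN and THY1 did not pass 3.81 and 2.39 TPM in any tumor. Summed over 9 genes, adipocyte, muscle and red cell markers ran from 316 to 1496 TPM in 5 tumors (2 h tumor 1, 4 h tumor 4, 8 h tumors 2 and 4, and 24 h tumor 4) and up to 116 TPM in the others. The muscle genes ACTA1, MYH4, CKM and MYH1 reached 684, 316, 277 and 217 TPM. The red cell genes HBB and ALAS2 did not pass 0.814 and 1.42 TPM in any tumor. The adipocyte genes PLIN1 and FABP4 did not pass 4.17 and 5.87 TPM, and ADIPOQ was at 0 throughout. Endothelial markers summed to at most 26.8 TPM over 8 genes, with PECAM1 and EMCN at a median of 0. The 8 myeloid markers summed to between 161 and 781 TPM, most of it LYZ (median 428 TPM). That sum was 331 to 427 TPM at 2 h and 215 to 310 TPM at 8 h, wholly below the vehicle tumors (496 to 767 TPM). At 4 h (527 to 745 TPM) and 24 h (161 to 781 TPM) it overlapped them. The sum mostly follows LYZ and CD68 (median 86.6 TPM), while PTPRC, MRC1, CD14 and ITGAM had medians of 0.78, 0.306, 1.83 and 1.24 TPM. Of 7 tested myeloid markers, 0 were called at 2 h, where 26.9% of all genes were. At 8 h, 1 rose and 2 fell (14.3% and 28.6%, beside 20.6% and 23.7% of all genes). PLAU and PLAUR fell at 2, 4, 8 and 24 h, and the part of the myeloid sum in those falls was not tested. The macrophage marker ADGRE1 was at 0 in all tumors. In these bulk samples, fewer cells of a type and less RNA per cell cannot be told apart.

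After IK-595 the secreted collagenase and stromelysin genes MMP1, MMP10 and MMP13 and the urokinase system genes PLAU, PLAUR and SERPINE2 were reduced, while MMP14, TIMP1 and TIMP2 did not pass the test at any time. Called here means an adjusted p under 0.05 (edgeR quasi-likelihood test, Benjamini-Hochberg over 18242 genes). Of the 9 genes, 5, 5, 6, 6 and 2 fell at 2, 4, 8, 24 and 48 h. Among all genes, 13.6%, 8.39%, 23.7%, 13.8% and 4.46% were called lower in that order, and 26.9%, 15.1%, 44.3%, 27.5% and 9.98% in either direction. None of the 9 (0) was called higher at any of the 5 times, where 13.4%, 6.74%, 20.6%, 13.7% and 5.52% of all genes were. The 4 h count of genes that fell became 3 on leaving out vehicle tumor 2, 3 or 4, or 4 h tumor 1, 3 or 4. Without 4 h tumor 1 or 3, and with DESeq2, 1 of the 9 (MMP14) was called higher at 4 h. By TPM, the highest treated tumor was under the lowest vehicle tumor for 6, 4, 7, 6 and 3 of the 9 in the order of the times, and for 22.3%, 8.66%, 30.5%, 12.8% and 10.6% of all genes. The median log2 difference of the 9 was −0.73, −0.86, −1.45, −1.14 and −0.34. Setting MMP10 to its bound where it had no count cannot move this median, since MMP10 stays below the middle of the 9. Over all genes tested, the median lay between −0.01 and 0.07. At 48 h, MMP1 and MMP10 were the 2 that remained called. These comparisons share the vehicle tumors, so their counts are not independent of each other.

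MMP10, MMP1 and MMP13 lie in a cluster on the long arm of chromosome 11 (GRCh38, GENCODE 29 annotation, minus strand). MMP10 (ENSG00000166670.10) spans chr11:102770503-102780628, MMP1 (ENSG00000196611.6) chr11:102789920-102798160 and MMP13 (ENSG00000137745.12) chr11:102942995-102955734. MMP14 (ENSG00000157227.14) is apart from them on the plus strand at chr14:22836557-22849027. PLAU (ENSG00000122861.16) lies at chr10:73909177-73917497 on the plus strand, PLAUR (ENSG00000011422.12) at chr19:43646095-43670547 on the minus strand and SERPINE2 (ENSG00000135919.14) at chr2:223975112-224039319 on the minus strand. TIMP1 (ENSG00000102265.12) is at chrX:47582313-47586789 on the plus strand, and TIMP2 (ENSG00000035862.12) is at chr17:78852977-78925387 on the minus strand. All are protein-coding, and each value is for the whole gene.

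MMP1, the interstitial collagenase that cleaves fibrillar collagen, was lower in every treated tumor at every time than in any vehicle tumor. At 2 h its levels in tumors 1 to 4 were 0.364, 0.325, 0.0996 and 0.126 TPM after IK-595, against 4.94, 11.2, 30.3 and 7.47 TPM after vehicle. The vehicle tumors themselves spread widely, yet the lowest of them stood above the highest treated one. At 4 h the levels were 0.101, 0.257, 0.27 and 0.361 TPM. At 8 h tumors 1 and 2 had 0.0401 and 0.122 TPM and the other two had none. At 24 h the levels were 0, 0.131, 0.225 and 0.0398 TPM, and at 48 h they were 0.172, 0.243, 0.441 and 0.878 TPM. The smallest deficit was thus seen at 48 h, where the mean was still 3.21% of the vehicle mean. Against vehicle, the log2 fold change at 2, 4, 8, 24 and 48 h was −5.68, −5.78, −7.90, −6.96 and −4.83, with an SE of 0.71, 0.72, 0.86, 0.79 and 0.67 (n = 4 per group). Adjusted p (edgeR) ran from 4.70e-07 at 8 h to 0.000146 at 48 h. The 8 h group held only 4 MMP1 counts in all, against 1565 in the vehicle group, so the size of that change is the least precise.

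MMP10, stromelysin 2, which cuts proteoglycans and basement membrane proteins and can activate procollagenases, had a low level even without drug. At 2 h tumor 1 had 0.0483 TPM and the other 3 treated tumors had none, against 0.28, 2.13, 2.81 and 0.804 TPM in the vehicle tumors. The single count behind that value, set against 148 in the vehicle group, gave a 128-fold lower share of reads with a 95% counting interval of 22.6 to 5076. No MMP10 count was found in any tumor at 8 h or at 24 h. Taking 3 counts over the group as the floor, MMP10 was at least 33.1-fold lower at 8 h and at least 40.2-fold lower at 24 h. At 4 h the tumors had 0.12, 0.455, 0.28 and 0.0474 TPM, and this range overlapped that of the vehicle tumors. The 4 h level did not pass the test against 2 h either (3.60 ± 1.31, SE, adjusted p = 0.0686). At 48 h tumors 2 and 4 had 0.165 and 0.0422 TPM and tumors 1 and 3 had none. MMP10 fell at all 5 times, with a log2 fold change of −6.37 ± 1.19 at 2 h (SE, adjusted p = 0.00124), −2.77 ± 0.87 at 4 h (adjusted p = 0.0395) and −4.62 ± 0.995 at 48 h (adjusted p = 0.00646). At 8 h and 24 h adjusted p was 0.000318 and 0.000619. The 4 h call was lost on leaving out vehicle tumor 2, 3 or 4, or 4 h tumor 1, 3 or 4, with adjusted p of 0.0528 to 0.132.

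**Figure D1:**
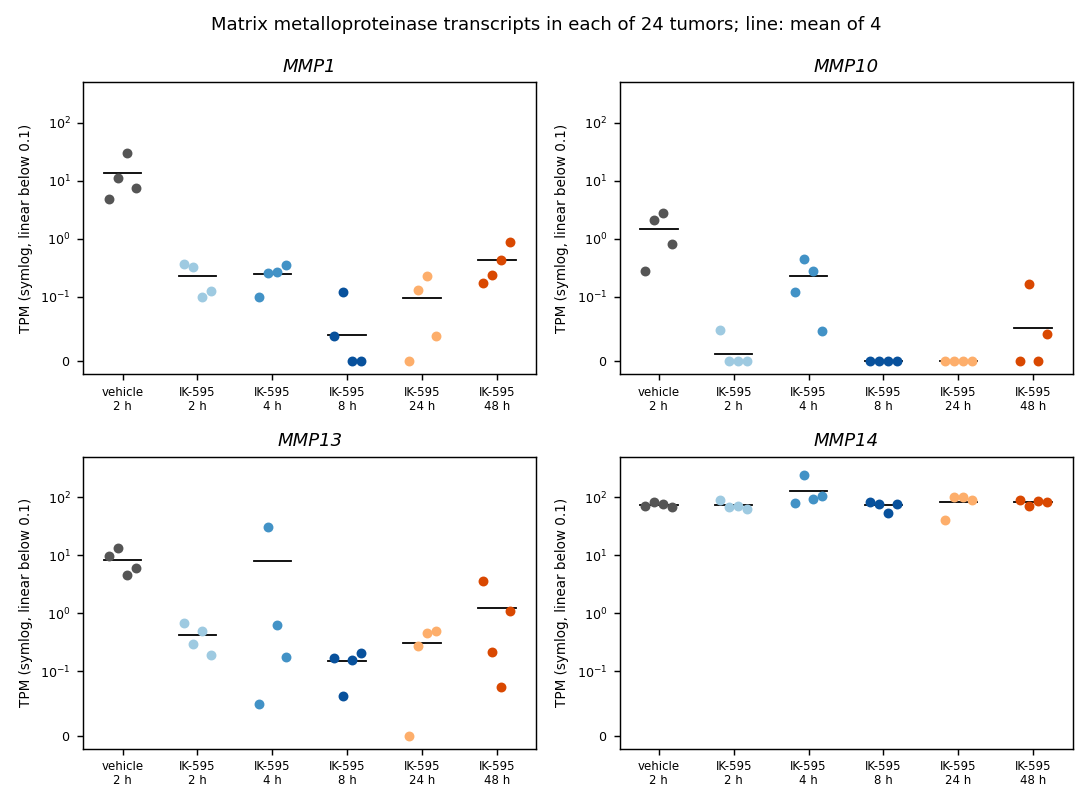
TPM of MMP1, MMP10, MMP13 and MMP14 in each tumor (points, tumors 1 to 4 from left to right within a group) for vehicle and the 5 times after IK-595, with the group mean as a line and a symlog axis that is linear below 0.1. MMP1 was lower in all 20 treated tumors than in the vehicle tumors, MMP10 was at 0 in all tumors at 8 and 24 h, and 4 h tumor 2 stood apart in MMP13 (30.8 TPM) and MMP14 (242 TPM).

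MMP13, collagenase 3, was lower in 19 of the 20 treated tumors than in any vehicle tumor. At 2 h it had 0.682, 0.295, 0.494 and 0.194 TPM after IK-595, against 9.62, 13.6, 4.53 and 5.95 TPM after vehicle. At 4 h it had 0.0499, 30.8, 0.625 and 0.175 TPM. Tumor 2 of the 4 h group therefore exceeded every vehicle tumor, while the other 3 were below all of them. At 8 h the levels were 0.17, 0.0619, 0.16 and 0.206 TPM, and at 24 h they were 0, 0.272, 0.459 and 0.499 TPM. At 48 h the tumors ranged from 0.0753 to 3.6 TPM, all below the vehicle range. MMP13 fell at 2 h (log2 fold change −3.98 ± 1.32, SE, adjusted p = 0.031), at 8 h (−5.45 ± 1.52, adjusted p = 0.00641) and at 24 h (−4.71 ± 1.39, adjusted p = 0.0164). The 48 h difference was −2.68 ± 1.2 (SE) and missed the threshold (adjusted p = 0.181). The 2 h call was lost on leaving out vehicle tumor 1 or 2 or any 1 of the 2 h tumors (adjusted p from 0.0507 to 0.0846), and the 24 h call on leaving out 24 h tumor 1 (adjusted p = 0.0504).

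At 4 h the MMP13 estimate rested on tumor 2. With all 4 tumors it was −0.07 ± 1.11 (SE, adjusted p = 0.974), and without tumor 2 it was −4.74 (adjusted p = 0.000857). That tumor had the highest fibroblast and pericyte marker level, 10768 TPM against 469 to 1208 TPM in the other 4 h tumors and 456 to 857 TPM in the vehicle tumors. With the mean of those markers as a covariate the 4 h difference was −3.95 (adjusted p = 0.011). Tumor 2 had by far the highest value of that covariate among all tumors, so the covariate fit leans on the same tumor. It is therefore no separate test from leaving tumor 2 out, and cannot decide what the markers account for. The part of host cells in the MMP13 level of that tumor was not tested. The MMP13 level of 3.6 TPM in 48 h tumor 1 stood beside a fibroblast marker level of 465 TPM, within the vehicle range.

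MMP14, the membrane-anchored MT1-MMP that cuts collagen at the cell surface and activates proMMP2, did not pass the edgeR test at any time. At 2 h it had 89, 68.2, 71.8 and 62.2 TPM after IK-595, against 71, 84.4, 75.1 and 69.1 TPM after vehicle, and the groups overlapped. At 4 h the levels were 79.3, 242, 94.6 and 104 TPM, with tumor 2 again the highest of all 24. At 8, 24 and 48 h the tumors ranged from 54.3 to 82.1 TPM, from 40 to 103 TPM and from 70.9 to 88.9 TPM. The log2 differences were 0.18, 0.60, 0.28, 0.27 and 0.22 at 2, 4, 8, 24 and 48 h, each with an SE of 0.22, and adjusted p was lowest at 4 h (0.0662). Leaving out 4 h tumor 1 or 3 brought the 4 h difference past the threshold (adjusted p of 0.0356 and 0.034), as did DESeq2 on all tumors (0.63, adjusted p = 0.0354), and leaving out tumor 2 reduced it to 0.26. On the TPM scale the sign at 2 and 8 h was negative (−0.05 and −0.06 with limma), so no direction is given for those times. The share of MMP14 in the summed TPM of the 4 enzymes averaged 99.1% ± 0.289 at 2 h, against 77.0% ± 7.68 in vehicle tumors (SD, n = 4 each). At 4, 8, 24 and 48 h it averaged 96.6%, 99.7%, 99.6% and 98.0%, with an SD of 5.41, 0.0208, 0.299 and 1.60 (n = 4 each). In each treated group the lowest share, 88.5% in the 4 h group, exceeded the highest in the vehicle group, 82.9%.

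**Figure D2:**
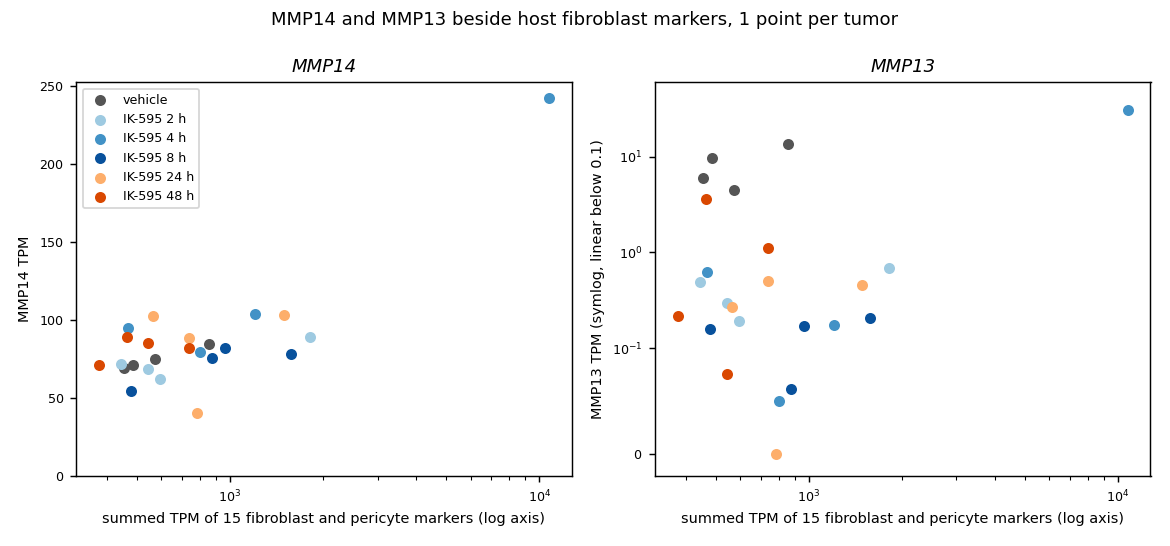
TPM of MMP14 (left, linear axis) and MMP13 (right, symlog axis, linear below 0.1) in each of 24 tumors against the summed TPM of 15 fibroblast and pericyte markers (log axis), coloured by group. The 4 h tumor at 10768 TPM of markers had the highest level of both genes, while the other 23 tumors lay between 377 and 1813 TPM of markers, with MMP14 between 40 and 104 TPM.

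PLAU, the gene of the plasminogen activator urokinase, was lower at 2 to 24 h, with no overlap between treated and vehicle tumors. At 2 h it had 34.2, 27.8, 33.6 and 26.7 TPM after IK-595, against 87, 93.6, 122 and 105 TPM after vehicle. The 4 h tumors had 46.3, 32.8, 36.7 and 55.7 TPM, and the 8 h tumors had 37.2, 31, 16.2 and 35.8 TPM. The 24 h tumors had 30.6, 36.7, 56.8 and 41.3 TPM, and all 12 of these later tumors were again below the lowest vehicle tumor. By 48 h the levels were 66.4, 36.8, 94.5 and 66.7 TPM, so that 1 tumor had entered the vehicle range and 1 remained near the 24 h level. PLAU fell at 2, 4, 8 and 24 h, with a log2 fold change of −1.47, −1.22, −1.45 and −1.14 (SE 0.23 each) and an adjusted p of 0.000156, 0.000709, 4.01e-05 and 0.00106. The 48 h difference of −0.49 ± 0.23 did not pass (adjusted p = 0.193).

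PLAUR encodes the GPI-anchored receptor that concentrates urokinase on the cell surface, and it had a different course. At 2 h it had 71.9, 76.7, 80.6 and 96.8 TPM after IK-595, against 122, 123, 156 and 124 TPM after vehicle. It had 67.6, 65.4, 76.1 and 66.3 TPM at 4 h, and 57.2, 56.3, 42 and 61.9 TPM at 8 h. At 24 h it had 49.9, 81.1, 104 and 93.4 TPM, still below every vehicle tumor. At 48 h all 4 tumors, with 152, 155, 155 and 164 TPM, stood above 3 of the 4 vehicle tumors. PLAUR fell at 2, 4, 8 and 24 h, with a log2 fold change of −0.54, −1.02, −1.11 and −0.63 (SE 0.15 each) and an adjusted p of 0.00884, 3.44e-05, 4.20e-06 and 0.00313. The 48 h estimate was 0.32 ± 0.15 and did not pass (adjusted p = 0.176). It passed in 1 of 18 alternatives, a fit of those 2 groups alone (adjusted p = 0.0466). From one time to the next, the 48 h level was higher than that at 24 h by 0.95 ± 0.15 (log2, SE, adjusted p = 0.000791), with no overlap between the tumors. The 48 h against 24 h call held in all 18 alternatives in which it was computed. PLAUR was also lower at 4 h than at 2 h (−0.47 ± 0.15, adjusted p = 0.0329) and higher at 24 h than at 8 h (0.49 ± 0.15, adjusted p = 0.0461), but these calls held in only 5 and 3 of 18 alternatives. The ratio of PLAUR to PLAU by TPM averaged 2.72, 1.68, 1.92, 1.98 and 2.65 at 2, 4, 8, 24 and 48 h (SD 0.663, 0.424, 0.467, 0.302 and 1.10), against 1.29 ± 0.092 in vehicle tumors (SD, n = 4 each). The 4 h tumors, at 1.19 to 2.07, overlapped the vehicle tumors, at 1.18 to 1.40, and the other times did not.

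SERPINE2, or protease nexin 1, was the most abundant of the 9 by TPM in vehicle tumors. At 8 h it had 218, 179, 70.8 and 132 TPM after IK-595, against 533, 607, 673 and 495 TPM after vehicle. At 24 h it had 78.4, 193, 311 and 287 TPM, and as at 8 h every treated tumor was below the lowest vehicle tumor. The earlier groups were less far apart, with 380, 303, 308 and 195 TPM at 2 h and 322, 196, 422 and 400 TPM at 4 h, though again without overlap. At 48 h the tumors had 634, 398, 433 and 260 TPM, and tumor 1 lay within the vehicle range. SERPINE2 fell at 8 h (log2 fold change −1.65 ± 0.30, SE, adjusted p = 0.000135) and at 24 h (−1.29 ± 0.29, adjusted p = 0.00264). It fell at 4 h as well (−0.86 ± 0.29, adjusted p = 0.0493), a call lost on leaving out any 1 of the 8 tumors compared (adjusted p from 0.0585 to 0.17). The differences at 2 h (−0.73 ± 0.29, adjusted p = 0.0648) and at 48 h (−0.34 ± 0.29, adjusted p = 0.537) did not pass. The 2 h difference passed in 3 of 18 alternatives, DESeq2 (adjusted p = 0.0422), a fit of those 2 groups alone (0.00502) and the adipocyte, muscle and red cell marker covariate (0.0448). The 8 h tumors differed from the 4 h tumors by −0.79 ± 0.29 (adjusted p = 0.047), a call that held in 8 of 18 alternatives.

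The low SERPINE2 value of 78.4 TPM belongs to 24 h tumor 1. By TPM, that tumor was also the lowest of its group in PLAU, PLAUR, MMP14, TIMP1 and TIMP2. By CPM (counts scaled by the TMM-adjusted library total, not by transcript length), it was not the lowest in PLAU or TIMP1. It had 77.0 CPM of PLAU, against 64.0, 96.4 and 67.6 CPM in tumors 2 to 4. Its TIMP1 level was 178 CPM, against 136, 150 and 184 CPM. That tumor stayed the lowest by CPM in PLAUR, SERPINE2, MMP14 and TIMP2. Mitochondrial transcripts made up 31.4% of its counts, against 12.1% to 14.4% in the other 24 h tumors and 8.00% to 10.8% in the vehicle tumors. Every tumor at 2 h (11.8% to 18.3%), 8 h (18.3% to 23.4%), 24 h and 48 h (11.6% to 12.8%) was above the vehicle range, while the 4 h tumors (7.36% to 15.4%) overlapped it. The highest of the 8 h tumors, tumor 3, had the lowest PLAU, PLAUR, SERPINE2, MMP14, TIMP1 and TIMP2 of that group. The part of RNA quality in these values was not tested. Without 24 h tumor 1 the 24 h calls of PLAU, PLAUR and SERPINE2 remained, and without 8 h tumor 3 so did their 8 h calls.

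**Figure D3:**
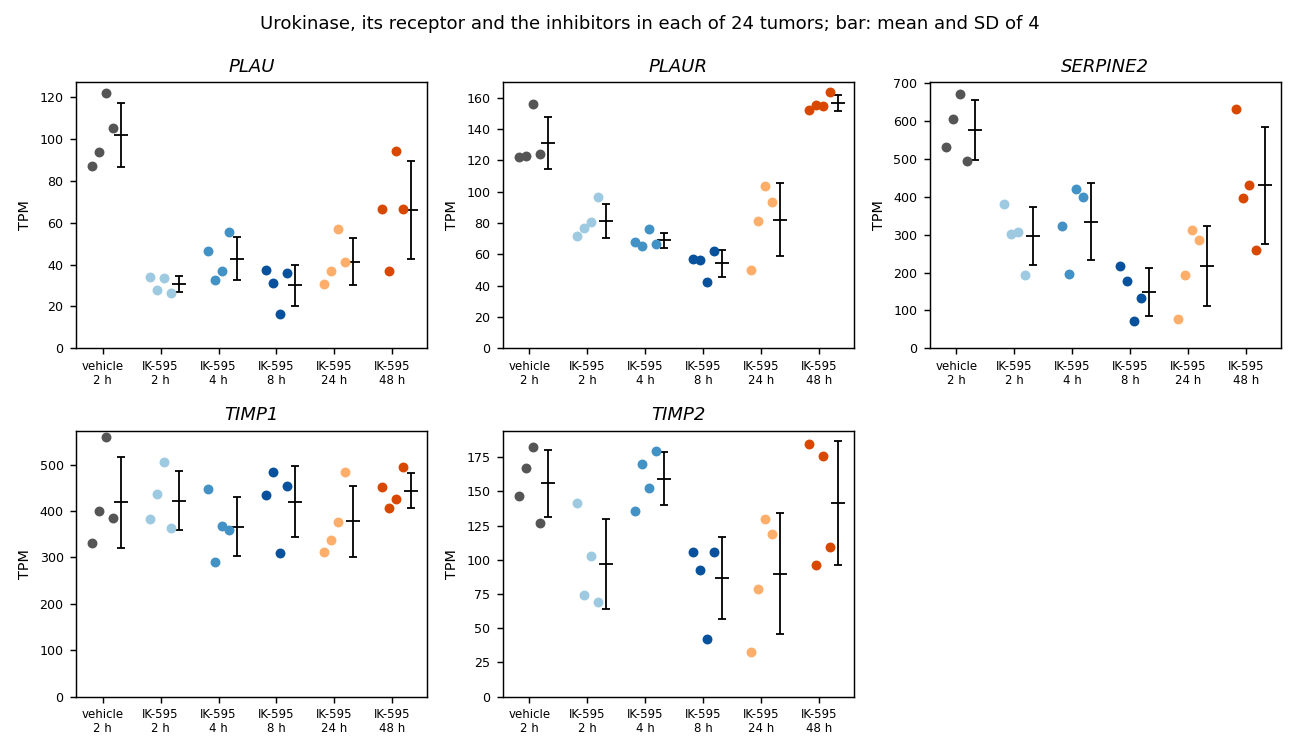
TPM (linear axes from 0) of PLAU, PLAUR, SERPINE2, TIMP1 and TIMP2 in each tumor (points, tumors 1 to 4 from left to right) for vehicle and the 5 times after IK-595, with the mean and SD of 4 tumors as bars. PLAU and PLAUR lay below every vehicle tumor from 2 to 24 h, PLAUR reached 152 to 164 TPM at 48 h, and TIMP1 overlapped the vehicle tumors at every time.

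TIMP1, a secreted inhibitor of most MMPs, did not pass the test against vehicle at any time. At 2 h it had 383, 437, 505 and 363 TPM after IK-595, against 330, 400, 560 and 384 TPM after vehicle. Over the 4 later times the tumors ranged from 291 TPM at 4 h to 494 TPM at 48 h, within or just below the vehicle range. The log2 differences were 0.24, −0.21, 0.29, −0.00 and 0.19 at 2, 4, 8, 24 and 48 h, each with an SE of 0.18. The 8 h difference passed the threshold only on leaving out vehicle tumor 3 (0.46, adjusted p = 0.046). Between times, TIMP1 was higher at 8 h than at 4 h by 0.49 ± 0.18 (adjusted p = 0.0444), a call that held in 5 of 18 alternatives.

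TIMP2, which inhibits MMPs and also takes part in the activation of proMMP2 by MMP14, was lower on average at 2, 8 and 24 h but without passing the test. At 2 h it had 142, 74.2, 103 and 69.5 TPM after IK-595, against 147, 167, 183 and 127 TPM after vehicle, and tumor 1 overlapped the vehicle range. At 8 h it had 106, 92.6, 42.3 and 106 TPM, all below the vehicle tumors, and at 24 h it had 32.4, 78.4, 130 and 119 TPM, of which 1 reached the vehicle range. The 4 h and 48 h tumors ranged from 135 to 179 TPM and from 96.5 to 185 TPM. The log2 differences were −0.48, 0.02, −0.57, −0.74 and −0.08 (SE 0.29 each), with the lowest adjusted p at 24 h (0.0593). At 8 h and 24 h, 4 of 18 alternatives each took the difference past the threshold, among them the fibroblast marker covariate (adjusted p of 0.0306 and 0.0142), and at 24 h leaving out 24 h tumor 3 did so as well (adjusted p = 0.0266). The ratio of TIMP1 to TIMP2 by TPM averaged 4.69, 2.36, 5.23, 5.22 and 3.39 at 2, 4, 8, 24 and 48 h (SD 1.38, 0.689, 1.46, 2.99 and 1.12), against 2.68 ± 0.424 in vehicle tumors (SD, n = 4 each). Its range overlapped the vehicle range at every time other than 8 h (4.11 to 7.30, against 2.25 to 3.06).

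Between successive times, MMP13 was called higher and PLAUR lower at 4 h than at 2 h, 1 gene each way, where 6.89% of all genes were called higher, 9% lower and 15.9% in all. At 8 h against 4 h, TIMP1 rose and MMP10, MMP13 and SERPINE2 fell, 1 and 3 of the 9, where 11.6% of all genes were called higher, 15.5% lower and 27.1% in all. PLAUR was the 1 gene called higher at 24 h than at 8 h, and again at 48 h than at 24 h, with 0 lower in both. Of all genes, 5.3% were called higher, 1.58% lower and 6.89% in all in the earlier of these comparisons, and 2.47%, 1.6% and 4.07% in the later. MMP1 and MMP13 were tested between treated times because all groups entered the filter on low counts, the vehicle tumors with their higher levels included. For MMP10 the vehicle tumors were not enough. Fitted with vehicle alone, it passed the filter beside the 4 h tumors but not beside those of 2, 8, 24 or 48 h. In fits of 2 treated groups alone, MMP1, MMP10 and MMP13 did not pass that filter. Most of these counts changed with 1 tumor. At 4 h against 2 h the count of 2 became 0 without 2 h tumor 2, 3 or 4 or 4 h tumor 2, and 1 without 4 h tumor 3 or 4. At 8 h against 4 h the count of 4 became 1 or 2 without 4 h tumor 2, 3 or 4 or any 1 of the 8 h tumors. At 24 h against 8 h the call was lost without any 1 of the 8 h tumors or 24 h tumor 2, 3 or 4, and at 48 h against 24 h the count became 2 without 24 h tumor 3 or 48 h tumor 2 or 4. The MMP13 step up at 4 h (3.90 ± 1.32, adjusted p = 0.0491) turned to −0.75 without 4 h tumor 2, and its step down at 8 h (−5.38 ± 1.52, adjusted p = 0.0143) shrank to −0.71 (adjusted p = 0.669). The MMP10 step down at 8 h (adjusted p = 0.0286) was lost without 4 h tumor 2 or any 1 of the 8 h tumors (adjusted p from 0.0502 to 0.0667).

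**Figure D4:**
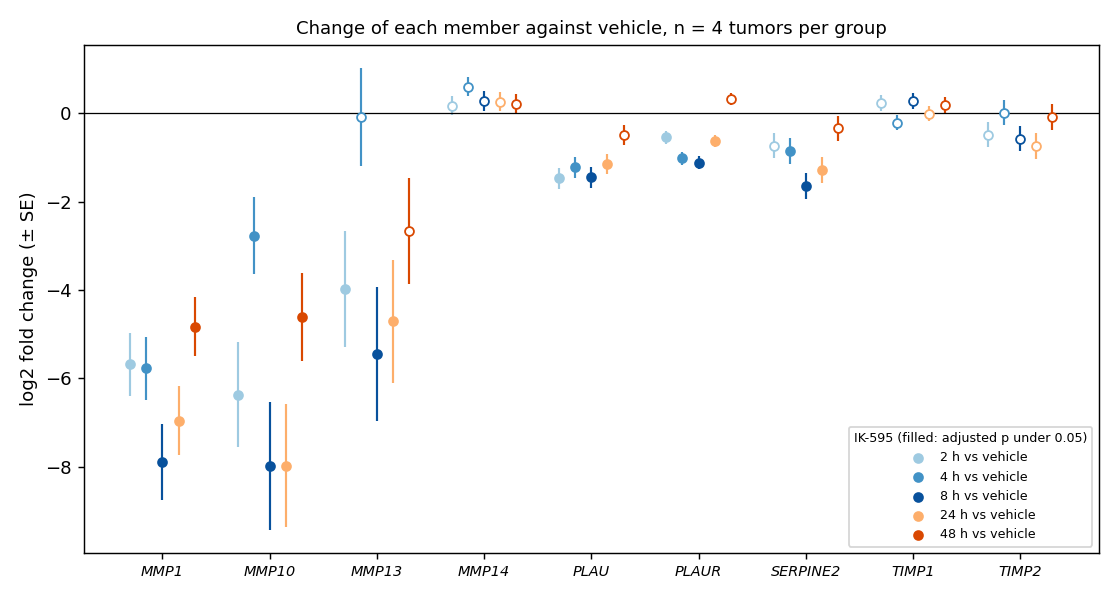
Log2 fold change of each of the 9 genes against vehicle at 5 times after IK-595 (points, with SE as bars), filled where the adjusted p was under 0.05, n = 4 tumors per group. MMP1 and MMP10 show the lowest values and stay filled at 48 h, PLAU and PLAUR are filled from 2 to 24 h, and MMP14, TIMP1 and TIMP2 are open throughout. MMP10 had no counts at 8 and 24 h, so its fitted values there depend on the fit's prior count.

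Ordered by mean TPM, the MMP1 level ran from vehicle through 48 h, 4 h, 2 h and 24 h to 8 h, and only the step from vehicle to 48 h separated neighbours without overlap. For MMP10 and MMP13 no neighbouring pair in the order was free of overlap. For PLAUR the order was 48 h, vehicle, 24 h, 2 h, 4 h and 8 h, with vehicle clear of 24 h and 4 h clear of 8 h. For MMP14, PLAU, SERPINE2, TIMP1 and TIMP2, every neighbouring pair in the order overlapped.

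Of the other MMP genes in the chromosome 11 cluster, MMP7, matrilysin, was the most abundant. It lies on the same strand, nearer to the centromere, at chr11:102520508-102530753. It averaged 312 ± 85.5 TPM at 2 h, against 313 ± 68.5 TPM in vehicle tumors (SD, n = 4 each), and rose only at 24 h (log2 difference 0.82 ± 0.30 SE, adjusted p = 0.0475). The other genes of the cluster, MMP20, MMP27, MMP8, MMP3 and MMP12, had 1 to 38 counts each over all 24 tumors and were not tested. MMP1 and MMP10 are overlapped on the opposite strand by the pseudogene WTAPP1, which had at most 2 counts in a tumor. PLAU is overlapped on the opposite strand by C10orf55, with at most 59.7 counts in a tumor against up to 3650 for PLAU. The strand setting of the counting is not given in the sources used here, so reads of such pairs cannot be told apart by strand.

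Start-site sequences were available from RefSeq (GRCh38.p14) for 6 of the 9 genes: MMP10, MMP14, PLAU, PLAUR, SERPINE2 and TIMP1. The 250 bases before each start were searched on both strands for TGANTCA, the core of the AP-1 site, whose reverse complement has the same form. It occurred in MMP10 and PLAUR, and in 6.57% of all 35116 windows of this length. The 2 windows are shown because they belong to called genes and hold the motif, which is in capitals, 67 bases before the MMP10 start and 186 before the PLAUR start. They cover chr11:102780629-102780878 and chr19:43670170-43670419, both on the minus strand, 5′ to 3′.
MMP10: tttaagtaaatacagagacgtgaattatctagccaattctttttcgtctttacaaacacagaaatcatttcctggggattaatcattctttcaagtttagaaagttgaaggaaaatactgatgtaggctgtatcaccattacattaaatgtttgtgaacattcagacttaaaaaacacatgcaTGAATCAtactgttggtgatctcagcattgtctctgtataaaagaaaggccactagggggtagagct
PLAUR: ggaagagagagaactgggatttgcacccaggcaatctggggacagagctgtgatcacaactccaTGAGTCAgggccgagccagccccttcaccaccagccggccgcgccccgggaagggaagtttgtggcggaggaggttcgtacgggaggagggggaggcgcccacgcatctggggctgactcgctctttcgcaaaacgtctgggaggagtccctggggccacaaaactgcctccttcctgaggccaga
TATAAA, the core promoter box of that name, lies 31 bases before the MMP10 start on the gene strand, and 6.8% of all windows hold it. AGGAAG, an ETS-type core searched on both strands, occurred in PLAU, PLAUR and TIMP1 and in 28.7% of all windows. None of these matches overlapped another in the 2 windows shown. PLAU and SERPINE2 have a pair of RefSeq starts each, and both were searched. A match shows that the letters are present and says nothing of binding.

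Of a wider list of 76 other genes of matrix breakdown, 69 were tested. Against vehicle, 10, 10, 10, 13 and 10 rose and 11, 7, 19, 14 and 1 fell, in the order of the times. That is 14.5%, 14.5%, 14.5%, 18.8% and 14.5% higher, beside 13.4%, 6.74%, 20.6%, 13.7% and 5.52% of all genes. It is 15.9%, 10.1%, 27.5%, 20.3% and 1.45% lower, beside 13.6%, 8.39%, 23.7%, 13.8% and 4.46% of all genes, so at 2 h in particular the shares were near those of all genes. The 4 h total of 17 became 10, 10 and 7 without vehicle tumor 1, 2 or 3. Of 11 tested genes of the plasminogen system, 0, 0, 0, 1 and 0 rose and 2, 1, 4, 4 and 0 fell in the order of the times. The shares that fell were 18.2%, 9.09%, 36.4%, 36.4% and 0%, beside 13.6%, 8.39%, 23.7%, 13.8% and 4.46% of all genes. At 2 and 4 h they were thus near those of all genes. The share that rose at 24 h was 9.09%, beside 13.7%. PLAT, the tissue-type plasminogen activator, averaged 37.6 ± 16.2 TPM at 8 h, against 370.2 ± 55.2 TPM in vehicle tumors (SD, n = 4 each), a log2 fold change of −3.04 ± 0.29 (SE, adjusted p = 8.50e-08). It also fell at 2, 4 and 24 h (−1.02, −1.62 and −1.28). ANXA2, a plasminogen-binding annexin and the most abundant gene of that list, fell at 8 and 24 h (−0.76 and −0.58).

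Among the ADAM genes, which encode membrane-bound sheddases, ADAM9 fell at 2, 8 and 24 h (−1.34, −1.88 and −0.99). ADAM19 fell at 2 to 24 h (−2.97 at 8 h), and ADAM8 fell at 4, 8 and 24 h (−0.92, −0.80 and −0.79). ADAM15 rose at all 5 times, by 0.44 to 0.62. LAMA3 and LAMB3 encode chains of a basement membrane laminin that MMP14 can cut, and both were called lower at 2, 8 and 24 h. At 8 h the log2 fold change was −1.25 for LAMA3 and −1.16 for LAMB3. LAMC1 fell at 2, 8 and 24 h, while LAMA5 rose at these times by 0.80, 0.75 and 0.66. COL17A1, a hemidesmosomal collagen and the most abundant gene of the substrate list, fell at 8 and 24 h (−0.76 and −0.57).

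Of 13 tested other serine and cysteine proteases, 5, 4, 5, 4 and 5 rose and 1, 1, 3, 1 and 0 fell in the order of the times. As shares, 38.5%, 30.8%, 38.5%, 30.8% and 38.5% rose, beside the 13.4%, 6.74%, 20.6%, 13.7% and 5.52% of all genes. The shares that fell were 7.69%, 7.69%, 23.1%, 7.69% and 0%, beside 13.6%, 8.39%, 23.7%, 13.8% and 4.46% of all genes, so near or below those. PRSS8, prostasin, averaged 118.6 ± 15.8 TPM at 8 h, against 45.9 ± 5.26 TPM in vehicle tumors (SD, n = 4 each), and rose at all 5 times, by 1.06 to 1.62 on the log2 scale. TMPRSS2 rose at all 5 times by 1.10 to 1.85, and the kallikrein gene KLK6 by 0.93 to 1.42. PRSS22 rose at 2, 8, 24 and 48 h by 1.86 to 2.07, and ST14, matriptase, at 2, 8 and 48 h by 0.60 to 0.92. Of the inhibitors, SPINT1, which blocks matriptase, rose at all 5 times by 0.56 to 1.07, and CST3, cystatin C, at 2, 8, 24 and 48 h by 0.89 to 1.10. The lysosomal CTSL fell at 2 to 24 h (−0.69 to −0.44), while CTSB, the most abundant of its list, did not pass at any time. MMP25, a GPI-anchored MMP at a low level (0.715 ± 0.338 TPM in vehicle tumors, SD, n = 4), rose at 2, 8, 24 and 48 h by 1.37 to 2.00. At 48 h, PRSS8, TMPRSS2, PRSS22 and KLK6 were still called higher, and PLAT and ADAM9 were not called.

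**Figure D5:**
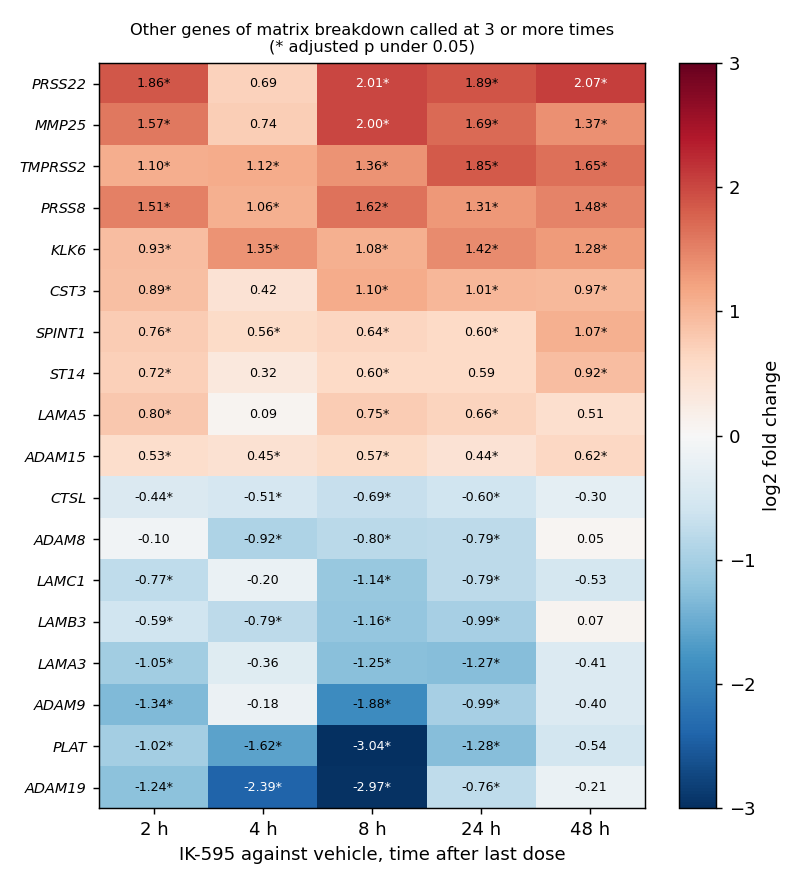
Log2 fold change against vehicle at 5 times after IK-595 for 18 genes of the wider list called in 1 direction at 3 or more times, with an asterisk for an adjusted p under 0.05 (n = 4 tumors per group). The upper 10 genes, from PRSS22 (2.07 at 48 h) to ADAM15, were higher, and the lower 8, from CTSL to ADAM19 (−2.97 at 8 h), were lower.

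Across the 24 tumors, the genes whose log2 level was most like that of each enzyme or inhibitor are given with Pearson's r as a description. All points share the same libraries and the same 6 groups. The nearest to MMP1 were MYH16 (r = 0.915) and HMGA1 (r = 0.896), and the nearest to PLAUR were GPRC5A (r = 0.947) and FRMD8 (r = 0.933). NECTIN1 was nearest to PLAU (r = 0.918), C16orf45 to SERPINE2 (r = 0.946), MFSD5 to MMP14 (r = 0.944), ATP6V1D to TIMP2 (r = 0.911) and CDA to TIMP1 (r = 0.863). For MMP13 and MMP10, whose counts are low, the highest values were 0.846 with RAP2B and 0.821 with RAI14.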

How the data were processed

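RNA was sequenced from 24 tumors of separate animals, 4 in each of 6 groups, after polyA selection and a paired-end library, per the labels' protocols. The authors deposited estimated counts and TPM per gene. Salmon 0.14.1 and the human build GRCh38.p13 are named, per the submitters' processing notes. Of the counts above 0, 59.6% were whole (tolerance 0.0015), and all were rounded here. Gene IDs were named from GENCODE 29 (57972) or a table of gene names (2247), and 11 stayed unnamed, with 0.00031% of counts.

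Genes passing filterByExpr were tested with edgeR 4.0.16 (R 4.3.3; TMM scaling, robust quasi-likelihood fit of all 24 tumors, 1 mean per group), and p was adjusted by Benjamini-Hochberg within each comparison. A gene was called at an adjusted p under 0.05. There were 5 comparisons with vehicle and 4 between successive times. SE is the log2 difference divided by the root of F. Counting intervals and floors cover counting error only. From the wider list, genes called in 1 direction at 3 or more of 5 times and the most abundant tested gene of each sub-list are named; for likeness, up to 3 genes with a mean log2 CPM of at least 3. Some genes that these rules name are not reported here, though counts include them. The members and lists were chosen with earlier results of these data known. Alternatives were DESeq2 1.42.0, RLE scaling, no low-count filter, a replicate block, limma 3.58.1 on log2(TPM + 1) and log2(TPM + 0.1), fits of the compared groups alone, marker covariates, leaving out host-rich tumors and leaving out each tumor.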

Additional observations from a re-analysis of the deposited data

Results flagged for a closer look

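Within groups of 4, single tumors stood apart in 4 of the 52 sets of values that were not all equal, out of 54 (9 genes in 6 groups). Chance marks about 1 set in 20. Tumor 2 of the 4 h group had 30.77 TPM of MMP13 and 242.2 TPM of MMP14, against at most 0.625 and 104 TPM in the other 3. MMP10 in the 2 h group had 0.0483 TPM in tumor 1, a single count, and none in the others, so it stands apart by construction. PLAUR in vehicle tumor 3 was at 155.9 TPM, with the next at 124 TPM.

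The effect against vehicle differed between successive times, by a test of the difference itself, in 8 cases. These were MMP13 (3.90) and PLAUR (−0.47) at 4 h against 2 h. At 8 h against 4 h they were MMP10 (−5.21, a fitted value with no count at 8 h), MMP13 (−5.38), SERPINE2 (−0.79) and TIMP1 (0.49). For PLAUR they were 0.49 at 24 h against 8 h and 0.95 at 48 h against 24 h. All are log2 differences, and only the last held in every alternative tried.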

How the results depend on the processing

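Of the 24 calls of single genes against vehicle, 20 held in every alternative that gave a value. The other 4 were MMP10 and SERPINE2 at 4 h and MMP13 at 2 and 24 h. Of the 8 calls between successive times, 1 held throughout.

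Host-rich tumors exceed their own group's median by more than 2 in mean log2 level of red cell, muscle and adipocyte markers. They were 2 h 1, 4 h 4, 24 h 4 and vehicle 2, and leaving them out gave 3 of 9 genes called at 4 h. The rule took neither 8 h tumor 2 nor 8 h tumor 4 (931 and 316 TPM of these markers), which raise their own group's median. Nor did it take 4 h tumor 2, rich in fibroblast markers. This setting therefore cannot decide the part of host tissue at 8 h or in MMP13 at 4 h. At 4 h against 2 h, the 2 calls became 0 with no low-count filter, with limma at either pseudocount, with only the groups compared, with either marker covariate and without host-rich tumors, and 1 with the replicate block. At 8 h against 4 h, the 4 calls became 2 with no filter or limma, 0 with only the groups compared, and 1 with the replicate block, the fibroblast covariate or host-rich tumors left out. At 24 h against 8 h, the single call became 0 with RLE scaling, no filter, limma, only the groups compared, the replicate block, host-rich tumors left out and the adipocyte, muscle and red cell covariate. At 48 h against 24 h it became 3 with DESeq2 or the fibroblast covariate and 2 with the other covariate. On the wider list, 17 calls at 4 h became 11 with no filter, only the groups compared or the replicate block, 9 with limma, and 10 without host-rich tumors. The 27 calls at 24 h became 15 without host-rich tumors, and the 11 at 48 h became 18 with only the groups compared. With only the groups compared, MMP1, MMP10 and MMP13 did not pass the low-count filter between times, so 6 of the 9 were tested there, and MMP10 gave no value against vehicle at 2, 8, 24 and 48 h. The other causes were not tested.

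Without 1 tumor at a time, the 9 genes gave 4 to 5 calls at 2 h, 3 to 5 at 4 h, 6 to 7 at 8 h, 5 to 7 at 24 h and 2 at 48 h against vehicle. They gave 0 to 3 at 4 h against 2 h, 1 to 3 at 8 h against 4 h, 0 to 1 at 24 h against 8 h and 1 to 2 at 48 h against 24 h. The wider list gave 16 to 22, 7 to 17, 25 to 28, 18 to 26 and 9 to 12.

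Signs turned only for differences near 0 or resting on 4 h tumor 2. MMP13 at 4 h was 0.0121 with DESeq2, 0.0167 with only the groups compared and 0.65 without host-rich tumors, and −4.74 to 0.37 without 1 tumor. At 4 h against 2 h it was −0.75 to 4.35 without 1 tumor. With limma at pseudocounts of 1 and 0.1, MMP14 was −0.0486 and −0.0493 at 2 h and −0.0611 and −0.0621 at 8 h; limma shifted the median of all genes by −0.13 and −0.19 at 8 h. TIMP1 at 24 h was 0.0001 with the replicate block, 0.0162 with the fibroblast covariate and −0.10 to 0.16 without 1 tumor. TIMP2 at 4 h was −0.0325 with no filter and −0.23 and −0.13 with the fibroblast and the other covariate, and −0.032 to 0.121 without 1 tumor. At 48 h it was 0.0160 and 0.0067 with those covariates and −0.208 to 0.0658 without 1 tumor.

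Replicate numbers did not pair the tumors: of 60 pairs with the same number, 20 correlated above 0.1 (mean r −0.0131), and 8 of 24 tumors correlated best with their own number. The adipocyte, muscle and red cell covariate was added after seeing the data. Low counts limit MMP10, MMP13 and MMP1 in treated tumors.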
